A study of Mus musculus with 6 samples.

Results

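Macrophage-recruiting cytokines and growth factors are the 9 genes Csf1, Csf2, Il34, Mif, Ccl2, Ccl5, Ccl7, Cx3cl1 and Cxcl12, taken by symbol from the 35727 genes of a count table of mouse undifferentiated pleomorphic sarcoma cells. All 9 had a row, and all 9 passed the filter on low counts, among 12819 genes tested. The cells were sorted by red fluorescence out of tumours that 1 line formed in mice. That line was made from mesenchymal stem cells of female p53 knockout C57/Bl6 mice, in which a retrovirus drove Ccne1, the gene of cyclin E1, together with a red fluorescent tracer, and was passaged through female wild-type mice. It then received a viral vector with a hairpin RNA against Postn (3 libraries, shPostn) or with a scrambled hairpin (3 libraries, shSCR), so both groups share the p53 loss and the Ccne1 overexpression. Sample titles call the shPostn libraries a knockout, while the growth protocol describes a hairpin. Neither the age of the host mice nor the origin of replicates (separate tumours, mice or runs) is in the labels. Each p therefore reflects the spread among these libraries alone, and that spread may be technical.

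Tumours draw monocytes from the blood with chemokines and keep the macrophages that arise from them alive with growth factors. CSF1 and IL-34 are the ligands of the receptor CSF1R, on which most macrophages depend. GM-CSF, encoded by Csf2, acts on granulocytes, monocytes and dendritic cells through a receptor of its own. MIF is a cytokine that binds CD74 and slows the movement of macrophages. CCL2 and CCL7 call monocytes through CCR2, CCL5 acts on CCR1 among other receptors, fractalkine (CX3CL1) on CX3CR1, and CXCL12 on CXCR4. The study's title links periostin, the matrix protein encoded by Postn, to tumour macrophages, and the comparison here asks which of these signals differ in the sarcoma cells when Postn is silenced.

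Of the 9 genes, 2 fell in shPostn (Csf2 and Mif), 1 rose (Ccl5) and 6 did not pass the test. Csf2 fell to 23.3% and Mif to 72.4% of the shSCR mean, and Ccl5 rose 2.05-fold. The main CSF1R ligand Csf1, its partner Il34 and the CCR2 ligands Ccl2 and Ccl7 were among the genes that did not pass. Of all genes tested 10.1% passed, 4.61% higher and 5.53% lower in shPostn (edgeR quasi-likelihood test, adjusted p under 0.05). The median log2 fold change, shPostn minus shSCR, was 0.03 over the 9 genes and 0.01 over all genes tested. Levels in shSCR and shPostn were fully separated for 4 of the 9 genes (the 3 named above and Cxcl12), and for 33.6% of all genes tested. The same 4 genes had an unadjusted p under 0.05, as did 27% of all genes tested. With shPostn replicate 3 left out, the library richest in leukocyte transcripts, the counts were again 2 lower and 1 higher; without shSCR replicate 2 they were 0 and 0, without shSCR replicate 1 or 3 they were 1 lower and 0 higher, and without shPostn replicate 1 or 2 they were 1 lower and 1 higher.

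**Figure D1:**
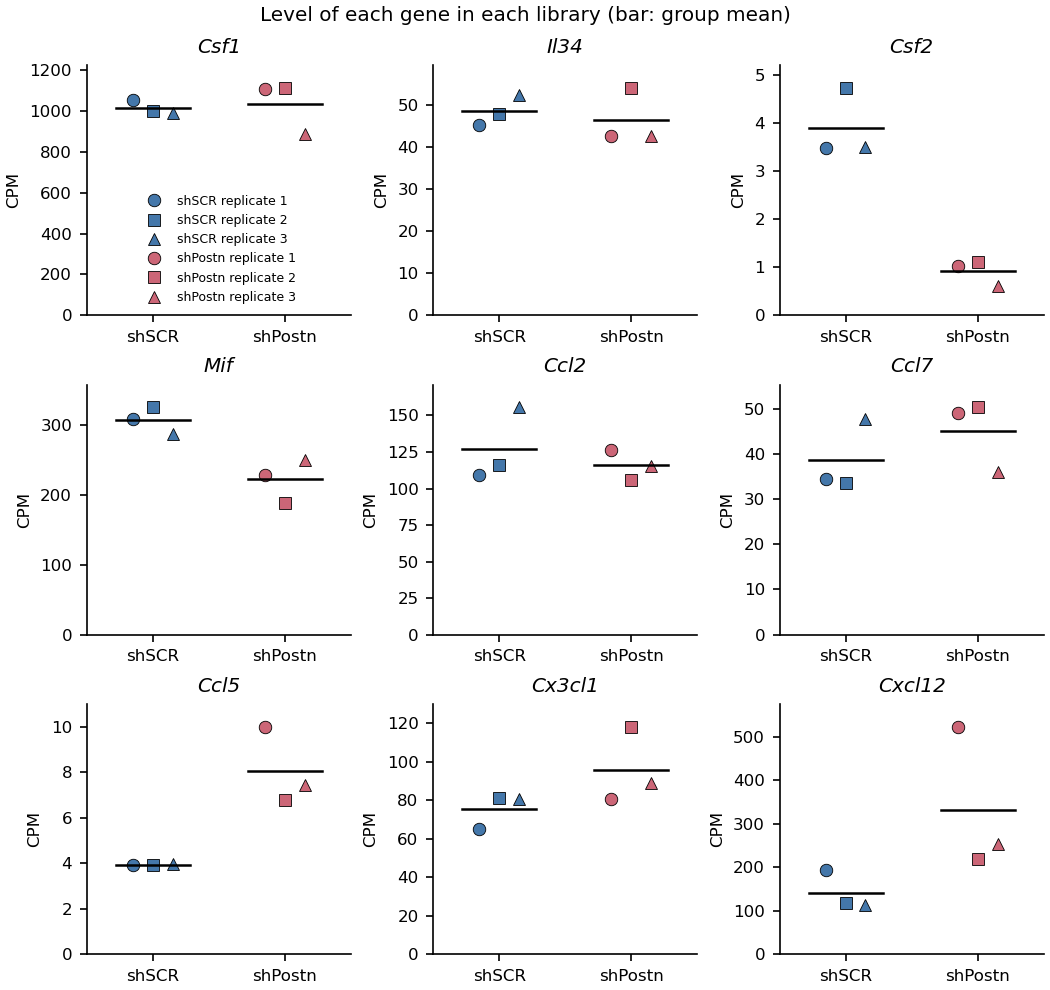
Level of each of the 9 genes in CPM (counts scaled to library size, vertical axis from 0) in the 3 shSCR and 3 shPostn libraries. Symbols mark replicate numbers, which the labels do not describe as pairs, and bars are group means. Csf2 and Mif lie lower and Ccl5 and Cxcl12 higher in all shPostn libraries, and the other 5 genes overlap.

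Library totals lay between 19603269 and 20376554 counts, and Postn itself fell from 3641.5 ± 437 to 442 ± 212 CPM (SD, n = 3 each; log2 fold change -3.04, SE 0.41, edgeR adjusted p = 0.0125). Silencing was uneven, with Postn at 217, 471 and 639 CPM in shPostn replicates 1 to 3. The Postn result was the same in 13 of 16 alternative fits, among which the highest adjusted p was 0.0592. CPM are counts scaled to the TMM-normalised library size. All 12 sarcoma and mesenchymal markers passed the filter, and their summed level lay between 46477 and 50922 CPM in shSCR and between 38344 and 58975 CPM in shPostn, although Thy1, 1 of the 12, had at most 79 counts. Of these markers 1 rose and 11 did not pass: Twist1, a mesenchymal transcription factor on chromosome 12, went from 105 ± 4.25 to 152.5 ± 20.2 CPM (SD, n = 3 each; log2 fold change 0.54, edgeR adjusted p = 0.0214), and with chromosome medians taken out its log2 fold change was 0.15 (adjusted p = 0.442). Its adjusted p lay between 0.0509 and 0.105 without any 1 of the libraries other than shPostn replicate 3. Leukocyte transcripts were present in all libraries, and 0 of 12 pan-leukocyte and 0 of 19 tested macrophage markers passed edgeR's test, DESeq2, limma-voom or an unadjusted p under 0.05. The summed level of 20 macrophage and monocyte markers was 127 to 307.5 CPM in the shSCR libraries, 185.5 and 107 CPM in shPostn replicates 1 and 2 and 1319 CPM in shPostn replicate 3, while Cd163 had at most 4 counts in any library. The most abundant per length, Lyz2 (lysozyme) and Ctss (cathepsin S), reached 358 and 151 CPM in shPostn replicate 3 and at most 83.8 and 28.1 CPM elsewhere. Of the pan-leukocyte markers, Tyrobp reached 27.4 CPM there and at most 6.59 CPM elsewhere, whereas Arhgdib lay between 151 and 199 CPM in all 6 libraries. Tested neutrophil (4), T and NK cell (2) and endothelial (3) markers gave 0 calls by the same 4 criteria, and S100a9, S100a8, Lck, Gzmb, Cdh5 and Pecam1 were at most at 3.30 CPM. In sorted bulk samples, fewer cells of a type and less RNA per cell cannot be told apart.

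For the genes of the 9 that have a promoter window in RefSeq (5 of 9: Csf1, Csf2, Mif, Cx3cl1 and Cxcl12), letters of 6 motifs of cytokine and stress control were searched in the 250 bases before and 50 after the start, on both strands. The windows of both genes that fell are shown beside that of Csf1, as the 250 bases before the RefSeq start on GRCm38.p6, 5′ to 3′ on the gene's strand, with motif matches in capitals. They are chr11:54249900-54250149 (minus strand) for Csf2, chr10:75860278-75860527 (minus) for Mif and chr3:107760470-107760719 (minus) for Csf1.
Csf2: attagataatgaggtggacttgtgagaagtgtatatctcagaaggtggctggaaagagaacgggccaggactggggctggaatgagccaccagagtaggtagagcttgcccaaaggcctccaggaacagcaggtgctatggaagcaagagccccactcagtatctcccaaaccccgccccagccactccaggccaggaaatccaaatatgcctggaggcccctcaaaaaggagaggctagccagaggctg
Mif: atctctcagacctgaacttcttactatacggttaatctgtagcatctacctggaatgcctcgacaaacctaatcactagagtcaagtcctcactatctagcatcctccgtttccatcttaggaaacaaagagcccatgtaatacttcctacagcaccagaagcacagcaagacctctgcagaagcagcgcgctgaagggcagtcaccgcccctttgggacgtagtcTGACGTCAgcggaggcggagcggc
Csf1: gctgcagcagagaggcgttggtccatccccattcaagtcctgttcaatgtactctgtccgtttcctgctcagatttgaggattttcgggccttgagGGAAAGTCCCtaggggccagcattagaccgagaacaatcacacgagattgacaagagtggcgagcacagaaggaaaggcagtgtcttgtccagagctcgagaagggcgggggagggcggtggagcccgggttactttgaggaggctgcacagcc
The capitals in Mif are TGACGTCA, the cyclic AMP response element, which 1.79% of 32851 RefSeq windows of this length hold. The capitals in Csf1 are a match, on the opposite strand, to the kappaB motif, which 8.46% of windows hold. Mif also held the hypoxia response core ACGTG (19.6% of windows) after its start, on the opposite strand, and Cx3cl1 a TATAAA (13.6%). The Csf2 window held none of the motifs, nor did that of Cxcl12, and none of the 5 held the AP-1 motif TGANTCA (7.81%) or the interferon regulatory factor element (3.44%). The GENCODE start of Csf2 lies 232 bases downstream of the RefSeq start, so the bases just before the GENCODE start are not in this window; for Mif the distance is 37 bases, and for Csf1 both starts coincide. A match is a description of letters and not of binding.

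The CSF1R ligands showed no difference that passed the test. Csf1 (ENSMUSG00000014599; GRCm38 chromosome 3, 107741048 to 107760469, minus strand) measured 1054, 1000.1 and 990.2 CPM in shSCR replicates 1 to 3 and 1106, 1113 and 889.9 CPM in the shPostn replicates. The shPostn libraries included both the highest levels and the lowest. On average Csf1 stood at 1015 ± 34.3 CPM in shSCR against 1036.5 ± 127 CPM in shPostn (SD, n = 3 libraries each; log2 fold change 0.03, SE 0.10, edgeR adjusted p = 0.876). The sign of the log2 fold change was negative without shPostn replicate 1 (-0.02) and without shPostn replicate 2 (-0.02). Il34 (ENSMUSG00000031750; chromosome 8, 110741829 to 110805924, minus strand), the second ligand, measured 45.1, 47.9 and 52.4 CPM in shSCR and 42.6, 54.0 and 42.5 CPM in shPostn. Here too the shPostn libraries held the highest value and the lowest values (log2 fold change -0.06, SE 0.11, edgeR adjusted p = 0.761). Per kilobase of exon, Csf1 stood 7.81 ± 0.829 times above Il34 in shSCR and 8.35 ± 1.11 times in shPostn (SD, n = 3 each).

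Csf2, the gene of GM-CSF and the least expressed of the 9 in shPostn, had the largest decrease among them. Csf2 (ENSMUSG00000018916; chromosome 11, 54247271 to 54249667, minus strand) had 71, 97 and 69 counts in the shSCR libraries and 20, 22 and 12 counts in the shPostn libraries. That is 3.49, 4.74 and 3.50 CPM against 1.03, 1.11 and 0.599 CPM. Every shPostn library was far below the lowest shSCR library. The means were 3.91 ± 0.717 and 0.913 ± 0.275 CPM (SD, n = 3 each), with a log2 fold change of -2.09 (SE 0.31, edgeR adjusted p = 0.00994). Summed over libraries, 237 counts in shSCR stood against 54 in shPostn, a ratio of 4.30 after scaling to library size (95% exact Clopper-Pearson interval 3.19 to 5.89, for counting error only). Without shSCR replicate 2, the library with the highest level, the log2 fold change was -1.93 and the adjusted p 0.0585; with any other library left out Csf2 passed. For Csf2, and likewise for Mif, Ccl5 and Cxcl12, permuting the CPM of the libraries gave an exact 2-sided p of 0.1, the lowest value possible with 3 libraries in each group. GM-CSF is also a product of T cells. The 12 T and NK cell markers summed to between 3.66 and 4.77 CPM in shSCR and between 3.75 and 5.89 CPM in shPostn. Only 2 of them, Lck and Gzmb, passed the filter on low counts. Below it, Cd3e had 3, 3 and 7 counts in shSCR and 0, 2 and 2 in shPostn. Cd3d had 2, 1 and 4 against 2, 2 and 3 counts, and Cd3g 2, 5 and 4 against 4, 4 and 5. The lowest Csf2 level was in shPostn replicate 3, which had the highest summed level of macrophage markers and of T and NK cell markers. Which cells the Csf2 reads came from was not tested.

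Mif, which encodes macrophage migration inhibitory factor and had the highest level per length of the 9 genes, fell by a smaller amount. Mif (ENSMUSG00000033307; chromosome 10, 75859353 to 75860240, minus strand) measured 307.5, 324.35 and 286 CPM in shSCR and 228, 189 and 249 CPM in shPostn. The highest shPostn library lay below the lowest shSCR library. The means were 306 ± 19.1 and 222 ± 30.5 CPM (SD, n = 3 each; log2 fold change -0.47, SE 0.11, edgeR adjusted p = 0.0405). The adjusted p was 0.118, 0.157 and 0.0922 without shSCR replicates 1, 2 and 3, 0.0762 and 0.0736 without shPostn replicates 1 and 2, and 0.00835 without shPostn replicate 3. With each chromosome's median difference taken out it was 0.0549, although the median of chromosome 10 was 0.01 on the log2 scale. The table holds 2 processed pseudogenes named for Mif, both listed at 0 counts in every library; whether reads of other near-identical copies were assigned to Mif was not tested. None of 5 genes around MIF passed edgeR's test, 1 of them (Cd44) had an unadjusted p under 0.05, DESeq2 called that 1 and limma-voom 0. They are Cd74 and Cd44, which form its receptor, its paralog Ddt, the binding partner Cops5 and the Golgi protein gene Uso1. Ddt averaged 7.99 ± 2.18 CPM in shSCR against 7.48 ± 1.28 CPM in the other group (SD, n = 3 each; log2 fold change -0.10, edgeR adjusted p = 0.83).

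The CCR2 ligands Ccl2 and Ccl7 lie side by side on chromosome 11. Ccl2 (ENSMUSG00000035385; 82035571 to 82037453, plus strand) measured 109, 116 and 155 CPM in shSCR and 126, 106 and 116 CPM in shPostn. shSCR replicate 3 was the highest, and the other libraries overlapped. The log2 fold change was -0.13 (SE 0.14, edgeR adjusted p = 0.608) and 0.04 without shSCR replicate 3. Ccl7 (ENSMUSG00000035373; 82045712 to 82047525, plus strand) measured 34.5, 33.5 and 47.7 CPM in shSCR and 49.1, 50.2 and 36.0 CPM in shPostn. shPostn replicates 1 and 2 were above all shSCR libraries, while shPostn replicate 3 lay among them (log2 fold change 0.23, SE 0.18, edgeR adjusted p = 0.482). Per kilobase, Ccl2 was 2.32 ± 0.113 times as abundant as Ccl7 in shSCR and 1.85 ± 0.388 times in shPostn (SD, n = 3 each).

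The rest of the Ccl2 cluster had few counts. Of its 6 genes (Ccl1, Ccl2, Ccl7, Ccl8, Ccl11 and Ccl12) 4 were tested, and 0 passed in edgeR, in DESeq2, in limma-voom or at an unadjusted p under 0.05. Ccl8, an attractant of monocytes and other leukocytes, averaged 0.910 ± 0.106 CPM in shSCR against 1.68 ± 0.745 CPM in shPostn (SD, n = 3 each; edgeR adjusted p = 0.203). Ccl12, a further ligand of CCR2 in mice, measured 1.33, 0.977 and 0.305 CPM in shSCR and 0.308, 0.202 and 4.75 CPM in shPostn, with the highest value in the library richest in macrophage markers. The eotaxin gene Ccl11 had 2 or 3 counts in each library, and Ccl1 had 1 count in all 6 together.

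Ccl5, also called RANTES, was the gene of the 9 that rose. Ccl5 (ENSMUSG00000035042; chromosome 11, 83525778 to 83530518, minus strand) had 80, 80 and 78 counts in shSCR and 195, 134 and 149 counts in shPostn. That is 3.94, 3.91 and 3.96 CPM against 10.004, 6.77 and 7.44 CPM. The shSCR libraries were nearly equal and all shPostn libraries lay above them. The shSCR values lay closer together than counting error alone usually gives, so their SD does not measure precision. The means were 3.93 ± 0.0253 and 8.07 ± 1.71 CPM (SD, n = 3 each; log2 fold change 1.04, SE 0.18, edgeR adjusted p = 0.0170). The adjusted p was 0.0688, 0.0855 and 0.0716 without shSCR replicates 1, 2 and 3, with log2 fold changes of 1.04, 1.03 and 1.04. The summed ratio was 2.05 (478 counts against 238, 95% exact Clopper-Pearson interval 1.75 to 2.40, for counting error only).

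In the Ccl5 cluster, Ccl6 and Ccl9 ranked the 6 libraries in the same order as the summed macrophage markers, and Ccl5 in another. Ccl6 measured 6.40, 6.16 and 1.42 CPM in shSCR and 2.46, 1.31 and 23.5 CPM in shPostn, and Ccl9 5.66, 4.20 and 1.17 CPM against 2.46, 0.960 and 22.8 CPM. Both are macrophage-attracting chemokines that myeloid cells make. Ccl3 and Ccl4, the macrophage inflammatory protein genes, had at most 4.15 and 3.10 CPM, both in shPostn replicate 3. Of the 5 cluster genes Ccl5 alone passed. Ccl5 was 6.77 CPM in shPostn replicate 2, the library with the lowest summed macrophage markers, and 3.94 CPM in shSCR replicate 1, the highest of the shSCR libraries in these markers. With the pan-leukocyte mean as a covariate its log2 fold change was again 1.04 (edgeR adjusted p = 0.0109). That of Csf2 was -2.03 (0.00307) and that of Mif -0.52 (0.00423). The pan-leukocyte markers summed to 493 CPM in shPostn replicate 3 and to at most 260 CPM in any other library. Which cells the reads of these genes came from was not tested.

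**Figure D2:**
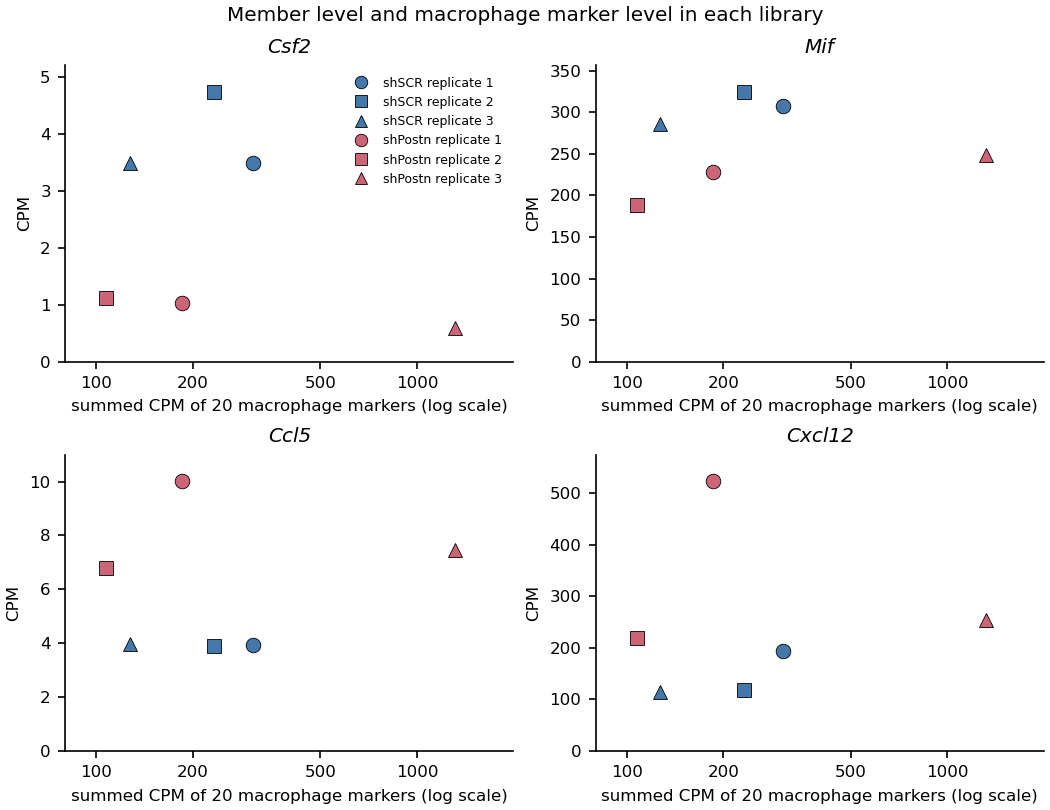
Level of Csf2, Mif, Ccl5 and Cxcl12 in CPM (vertical axis from 0) against the summed CPM of 20 macrophage and monocyte markers (horizontal log axis) in each of the 6 libraries. The 4 genes are those whose groups do not overlap, and shPostn replicate 3 lies far right at 1319 CPM of markers.

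The transmembrane chemokine fractalkine and CXCL12 had higher means in shPostn without passing the test. Cx3cl1 (ENSMUSG00000031778; chromosome 8, 94772009 to 94782427, plus strand) measured 65.0, 81.3 and 80.9 CPM in shSCR and 80.5, 118 and 88.9 CPM in shPostn. shPostn replicates 2 and 3 lay above all shSCR libraries and replicate 1 just below 2 of them (log2 fold change 0.34, SE 0.16, edgeR adjusted p = 0.241). Cxcl12 (ENSMUSG00000061353; chromosome 6, 117168535 to 117181367, plus strand) measured 193, 118 and 114 CPM in shSCR and 522.5, 218 and 254 CPM in shPostn. The groups did not overlap, but shPostn replicate 1 was more than double the other shPostn libraries, and shSCR replicate 1 was well above the other shSCR libraries. Cxcl12 averaged 142 ± 44.4 CPM in shSCR and 332 ± 166 CPM in shPostn (SD, 3 libraries each), a ratio of 2.34, with a log2 fold change of 1.23 (SE 0.41, edgeR adjusted p = 0.129) that was 0.74 without shPostn replicate 1. This was a larger ratio than that of Ccl5, with a wider spread.

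**Figure D3:**
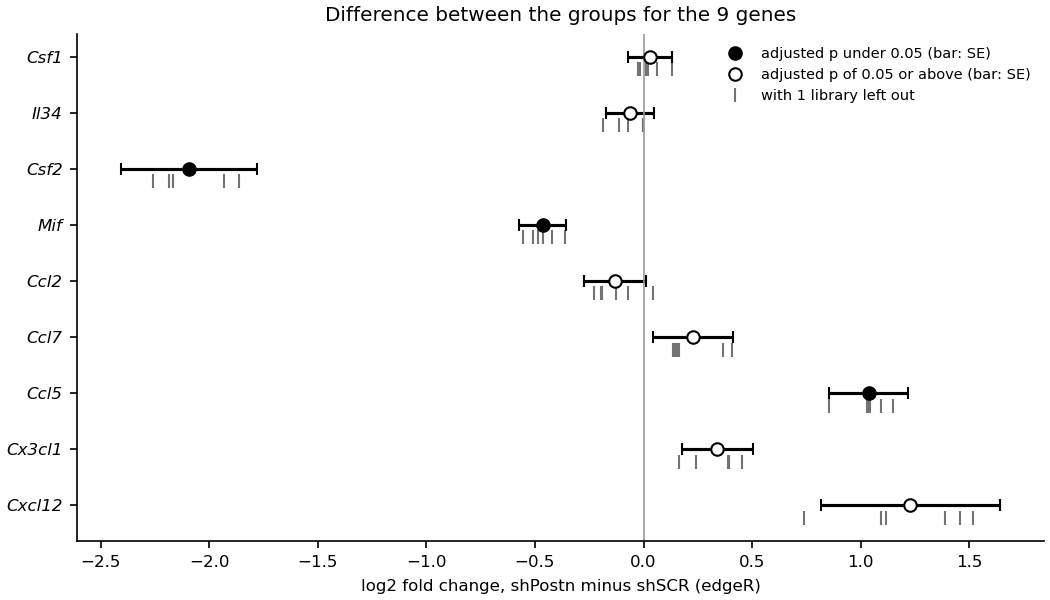
Log2 fold change, shPostn minus shSCR, of each gene in edgeR (horizontal axis; circles with SE bars, filled where the adjusted p is under 0.05), with ticks for the values when 1 library is left out. Csf2 (-2.09), Mif (-0.47) and Ccl5 (1.04) are filled, and Cxcl12 has the widest bar (SE 0.41).

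The order of the 9 genes by level per length changed at its lower end. In shSCR it ran from Mif (411 ± 25.6 CPM per kilobase of exon; SD, n = 3) through Csf1 (192 ± 6.50), Ccl2 (112 ± 21.9), Ccl7 (48.1 ± 9.89), Il34 (24.7 ± 1.87), Cx3cl1 (19.3 ± 2.37), Cxcl12 (17.3 ± 5.43) and Csf2 (4.89 ± 0.896) to Ccl5 (4.10 ± 0.0263). Of neighbours in that order only Cx3cl1 and Cxcl12 had libraries that overlapped. In shPostn, Mif (298 ± 40.95), Csf1 (196 ± 24.05) and Ccl2 (102 ± 8.96) kept the first places, apart from each other and from Ccl7 (56.3 ± 9.87). Then Ccl7, Cxcl12 (40.6 ± 20.3), Cx3cl1 (24.4 ± 5.02) and Il34 (23.7 ± 3.38) each overlapped with the next. Ccl5 (8.41 ± 1.78) and Csf2 (1.14 ± 0.343) came last with no overlap. Ccl5 was 0.856 ± 0.146 times the Csf2 level in shSCR and 7.85 ± 2.65 times in shPostn (SD, n = 3 each). With the length of the longest transcript in place of all exons, Ccl5 ranked above Csf2 in shSCR with overlapping libraries, Cxcl12 ranked above Cx3cl1 in shSCR and Cxcl12 above Ccl7 in shPostn.

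**Figure D4:**
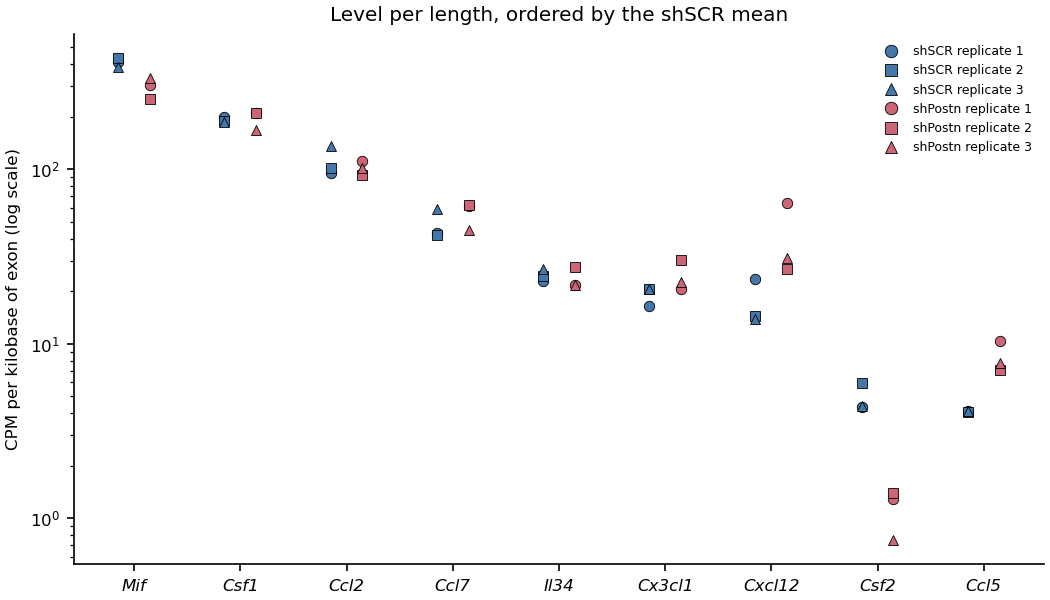
CPM per kilobase of exon (vertical log axis) of the 9 genes in each library, in the order of the shSCR means; blue symbols are shSCR and red symbols shPostn. Mif, Csf1 and Ccl2 lead in both groups, and the lowest genes Csf2 and Ccl5 change places.

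Most receptors for these ligands were highest in shPostn replicate 3, the library with the highest macrophage markers. Csf1r, Ccr2 and Cx3cr1 are in both lists, so part of this match was set in advance. The part of macrophages in the receptor levels was not tested. Of 18 receptor genes 14 were tested and 0 passed edgeR's test, with 2 at an unadjusted p under 0.05, 2 called by DESeq2 and 0 by limma-voom. The most abundant per length were Sdc1, a syndecan that binds IL-34, at 309 ± 6.35 CPM in shSCR and 346 ± 15.3 CPM in shPostn, and Cd44, the MIF co-receptor, at 437.5 ± 25.7 and 528 ± 41.5 CPM (SD, n = 3 each; edgeR adjusted p = 0.141 and 0.0848). These were the 2 genes that DESeq2 called. Sdc1 lies on chromosome 12, whose genes were higher by a median of 0.39 on the log2 scale, and had a log2 fold change of 0.16, which was -0.23 with chromosome medians taken out. For 10 of the 14 the highest level was in shPostn replicate 3, and without that library 11 of the 14 log2 fold changes turned from positive to negative and the median went from 1.09 to -0.20. Csf1r, the receptor of CSF1 and IL-34, measured 15.7, 13.4 and 6.09 CPM in shSCR and 9.03, 4.45 and 73.2 CPM in shPostn. Cxcr4, the receptor of CXCL12, measured 3.10, 2.49 and 1.47 CPM against 3.18, 1.26 and 18.5 CPM. Ackr3, the scavenging receptor of CXCL12, was at 39.6 CPM in shPostn replicate 1, the library highest in Cxcl12, and between 15.9 and 17.9 CPM in the other 5. Csf2rb and Csf2rb2 are near-identical copies, so the split of reads between them is uncertain, and Ptprz1, a further receptor of IL-34, had 0 counts in every library.

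**Figure D5:**
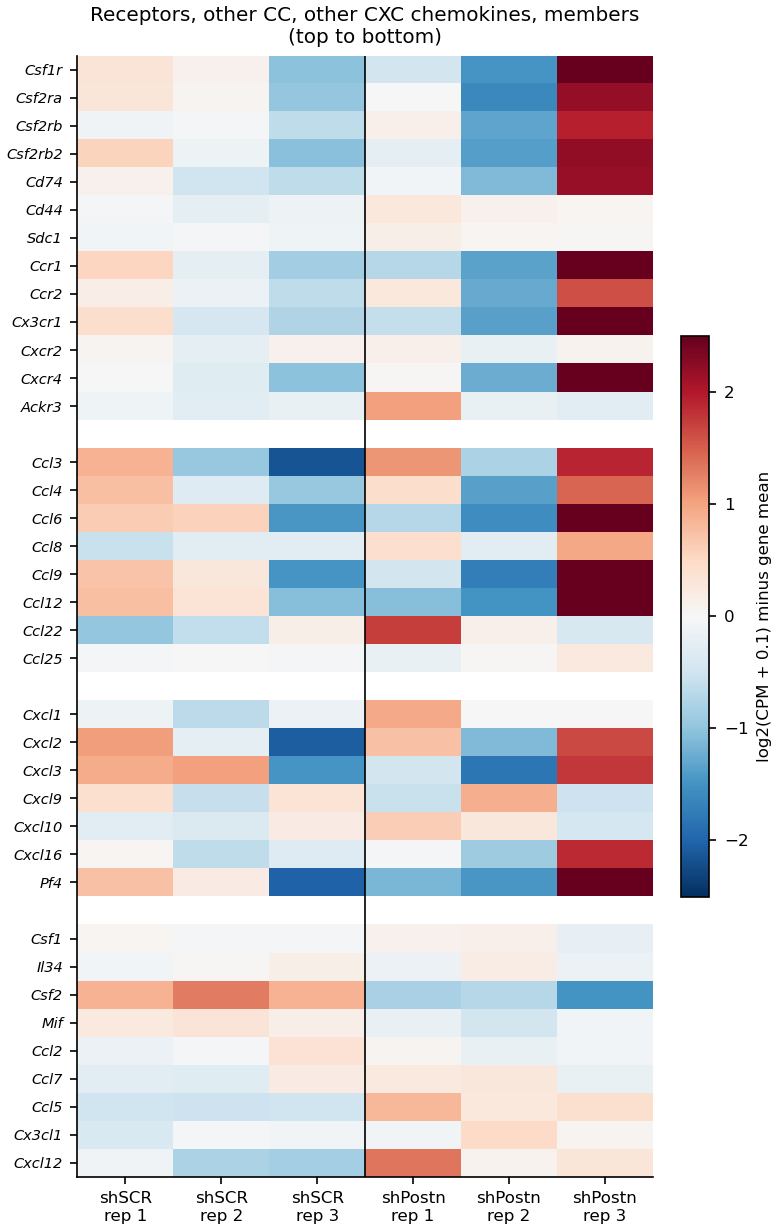
Heat map of log2(CPM + 0.1) minus each gene's mean over the 6 libraries (columns) for 13 of the 14 tested receptors, other CC chemokines, other CXC chemokines and the 9 genes (rows, top to bottom), with colours that saturate at 2.5. Most receptor and CC chemokine rows peak in shPostn replicate 3, whereas none of the 9 genes does.

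Other chemokines gave 0 called genes. Of 17 other CC chemokines 8 were tested and 0 passed in edgeR, DESeq2, limma-voom or at an unadjusted p under 0.05, and 7 of the 8 were highest in shPostn replicate 3; the exception was Ccl22. Their median log2 fold change was 0.98 (0.01 for all genes tested) and -0.13 without shPostn replicate 3, where 5 of the 8 changed sign: Ccl12 from 1.00 to -1.75, Ccl6 from 0.96 to -1.30, Ccl9 from 1.25 to -1.10, Ccl4 from 0.62 to -0.22 and Ccl25 from 0.07 to -0.04. Ccl6, given above, and Ccl8 had the highest levels per length. Of 15 other CXC and C chemokines 7 were tested and 0 passed by the same 4 criteria. Cxcl10, an attractant of T cells through CXCR3, measured 118, 111 and 164 CPM in shSCR and 218, 173 and 106 CPM in shPostn (log2 fold change 0.34, SE 0.30, edgeR adjusted p = 0.524). The neutrophil attractant Cxcl1 measured 61.9, 42.8 and 61.6 CPM in shSCR and 130.5, 67.2 and 67.7 CPM in shPostn (log2 fold change 0.67, SE 0.32, edgeR adjusted p = 0.247). Its libraries did not overlap, and shPostn replicate 1 stood apart as for Cxcl12.

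Among 17 tested cytokines and mediators that act on myeloid cells, Anxa1 rose and 16 did not pass edgeR's test; DESeq2 and limma-voom each called 2, Anxa1 and Ptn. Ptn, the gene of the growth factor pleiotrophin, measured 2.12, 6.89 and 5.63 CPM in shSCR and 14.9, 14.4 and 11.8 CPM in shPostn, with no overlap and a larger log2 fold change than Anxa1 (1.49, SE 0.40, adjusted p = 0.0717 in edgeR, 0.00185 in DESeq2 and 0.0429 in limma-voom). Anxa1 encodes annexin A1, a protein that dampens inflammation, and went from 408 ± 28.3 to 517 ± 37.1 CPM (SD, n = 3 each; log2 fold change 0.34, SE 0.08, edgeR adjusted p = 0.0476). Its adjusted p was between 0.0924 and 0.182 without shSCR replicate 1, 2 or 3 or shPostn replicate 1 or 2, 0.0758 with chromosome medians taken out and 0.0505 with upper-quartile factors. In the other direction, Il15 was lower in shPostn without passing (log2 fold change -0.56, edgeR adjusted p = 0.0885). Without shPostn replicate 3, Il15 passed as lower (-0.66, edgeR adjusted p = 0.0411) and Lif as higher (0.95, edgeR adjusted p = 0.0446). Of 7 tested genes that cut or release the 9 proteins 2 rose, Mmp9 and Adam17. Limma-voom called the same 2, and DESeq2 these and Furin (log2 fold change 0.28, edgeR adjusted p = 0.0808). Mmp2 went the other way without passing (-0.29, edgeR adjusted p = 0.197). Without shPostn replicate 3 it passed at -0.44 (edgeR adjusted p = 0.00778). Mmp9, the gelatinase B gene, went from 24.2 ± 4.74 to 53.0 ± 13.5 CPM (log2 fold change 1.13, SE 0.23, edgeR adjusted p = 0.0359). Its adjusted p lay between 0.0750 and 0.133 without shSCR replicate 1, 2 or 3 or shPostn replicate 2 or 3, and was 0.0671 with no count filter, 0.0554 with the pan-leukocyte covariate and 0.0552 with chromosome medians taken out. Adam17, a protease that releases fractalkine from the membrane, went from 84.7 ± 4.42 to 102 ± 0.214 CPM (log2 fold change 0.26, SE 0.06, edgeR adjusted p = 0.0364). The shPostn SD of Adam17, too, was smaller than counting error alone usually gives. Adam17 lies on chromosome 12, and with chromosome medians taken out its log2 fold change was -0.13 (adjusted p = 0.258). Its adjusted p was between 0.0706 and 0.129 without shSCR replicate 1, 2 or 3 or shPostn replicate 1 or 2.

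Many genes followed each called gene closely over the 6 libraries. By Pearson correlation of log2 CPM, a description over 6 libraries that share the group difference, Csf2 was most like Cth (0.999), an enzyme of cysteine synthesis, Slc35a4 (0.999) and Lingo1 (0.998). Cth measured 63.2, 82.0 and 65.8 CPM in shSCR and 23.4, 27.3 and 15.7 CPM in shPostn, with its highest and lowest libraries the same as for Csf2. Mif was most like the matrix gene Fbln2 (0.997), the endoplasmic reticulum chaperone gene Dnajb11 (0.996) and Trim36 (0.994). Ccl5 was most like Leprot (0.999), the vinculin gene Vcl (0.998), which links actin to adhesions, and Slc39a9 (0.997). Of 12023 named genes 281 had a correlation above 0.95 with Csf2, 124 with Mif and 237 with Ccl5.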

How the data were processed

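RNA-seq libraries (strand-specific, poly(A), DNBSEQ, per the labels) came from 6 samples in 2 groups. Estimated counts for Ensembl genes were deposited as 1 table; Salmon and mm10 are named in the submitters' processing notes. Not given in the sources used here: version, annotation, use of strand. All values were whole numbers, so rounding changed none. Symbols, positions and exon lengths came from GENCODE release M21 (GRCm38; 35422 IDs matched), promoter windows from RefSeq (GRCm38.p6).

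Counts were analysed with edgeR 4.0.16 (filterByExpr with a minimum count of 10, TMM, robust quasi-likelihood F-test, no covariate) in R 4.3.3, with Benjamini-Hochberg adjustment over 12819 genes and a threshold of 0.05. The SE is the log2 fold change over the square root of F. On simulated data of 12819 genes, of which 200 were changed, 63% of 2-fold and 84% of 4-fold changes were recovered, with 14 false calls among 161. In the data 1300 genes were called, so the share of changed genes differs and these rates need not hold for this comparison. Alternatives were other scalings and filters, DESeq2 1.42.0, limma-voom (3.58.1), a replicate block, a pan-leukocyte covariate, chromosome medians taken out and each library left out. The labels give no batch.

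The 9 genes and the lists were chosen with earlier results of these data known. The rule named the 9 genes, Postn, both chemokine clusters, the 2 called genes with the largest change each way in a list or else its 2 most abundant per length, and the 3 genes most correlated with each called gene. Csf1r, Cxcr4, Ackr3, Ptprz1, Csf2rb, Csf2rb2, Ddt, Thy1, Cd163, Cd3e, Ccl25, Ccl22, Ptn, Nfkb1, Nfkb2, Birc3, Nfkbia and Tnfaip3 were named after their values were seen. So were Ikbkb, Ikbkg, Cd3d, Cd3g, Furin, Mmp2, Il15 and Lif. Without molecular identifiers, counting error is all that the intervals include. The lists hold 2 genes that are not reported here. Figures used matplotlib 3.10.9.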

Additional observations from a re-analysis of the deposited data

How the results depend on the processing

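Csf1 reversed sign without shPostn replicate 1 (-0.0174) or 2 (-0.0236), and Ccl2 without shSCR replicate 3 (0.0411); no other of the 9 genes reversed under any of the 16 alternatives. With 1 library left out, log2 fold changes ranged from -2.26 to -1.86 for Csf2, -0.55 to -0.36 for Mif, 0.853 to 1.15 for Ccl5, 0.74 to 1.52 for Cxcl12, -0.02 to 0.13 for Csf1, -0.19 to -0.00292 for Il34, -0.23 to 0.04 for Ccl2, 0.13 to 0.41 for Ccl7 and 0.16 to 0.45 for Cx3cl1. The number of the 9 genes called higher ranged from 0 to 1 and lower from 0 to 2, and of all genes tested from 118 to 1028 higher and from 189 to 1192 lower, with the highest counts without shPostn replicate 3. The labels do not say whether replicate numbers pair the libraries. Deviations from the group means of same-numbered libraries correlated at -0.07, -0.13 and -0.44, and no library correlated best with its own number. Deviations within a group of 3 depend on each other, so these values cannot settle whether same-numbered libraries were handled together. With the replicate block Mif stood at -0.47 (edgeR adjusted p = 0.0961) and Cxcl12 at 1.16 (0.0176) on the log2 scale, so 2 of the 9 genes were called higher and 1 lower, with 321 and 414 over all genes tested; the calls of Anxa1 (0.108), Adam17 (0.0839), Tnip1 (0.0513) and Twist1 (0.0535) were not made with the block. With chromosome medians taken out Mif had a log2 fold change of -0.48 and 1 of the 9 was called lower; over all genes 294 were called higher and 360 lower. DESeq2 called 966 genes higher, and the pan-leukocyte covariate gave 962 higher and 1141 lower. The cause of these shifts was not tested. Counts per library limit precision most for Csf2 and Ccl5, and changes under 2-fold were not simulated, so recovery of a change the size of Mif's was not measured.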

Other observations

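Regulators upstream of chemokine genes were also measured. Of 15 NF-kappaB subunits and feedback genes Tnip1, which encodes a partner of the deubiquitinase A20, fell from 53.2 ± 1.35 to 42.4 ± 2.58 CPM (SD, n = 3 each; log2 fold change -0.33, SE 0.07, edgeR adjusted p = 0.0264), and 14 did not pass; the median log2 fold change of the 15 was -0.02. Of the 15, 5 had an unadjusted p under 0.05 in edgeR. DESeq2 called Tnip1, Birc3 and Tnfaip3, and limma-voom called Tnip1. Birc3, an inhibitor of apoptosis, averaged 62.4 ± 4.26 CPM in shSCR and 49.0 ± 5.25 CPM in shPostn (log2 fold change -0.35, edgeR adjusted p = 0.0587). The subunit genes Nfkb1 (-0.14, adjusted p = 0.255) and Nfkb2 (-0.22, adjusted p = 0.171) were also lower in every shPostn library than in any shSCR library without passing edgeR's test. In the other direction, Ikbkb (0.16, adjusted p = 0.101) and Ikbkg (0.22, adjusted p = 0.0812) were higher in every shPostn library, also without passing edgeR's test. Of all genes tested, 33.6% had groups that did not overlap. The edgeR adjusted p of Tnip1 was between 0.0521 and 0.109 without any 1 of shSCR replicates 1 to 3 or shPostn replicates 1 and 2. The NF-kappaB feedback gene Nfkbia measured 227, 166 and 229 CPM in shSCR and 549.6, 297 and 243 CPM in shPostn, and Tnfaip3, the gene of A20, 56.7, 44.5 and 53.7 CPM against 134, 69.8 and 56.6 CPM. Their log2 fold changes were 0.81 and 0.75, the highest of the list, without passing edgeR's test (adjusted p = 0.196 and 0.239). Nfkbia lies on chromosome 12, and with chromosome medians taken out its log2 fold change was 0.42. Both were highest in shPostn replicate 1, as were Ccl5, Cxcl12 and Cxcl1.

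Of 12 transcription factor genes upstream of chemokines 0 passed edgeR's test, 3 had an unadjusted p under 0.05, DESeq2 called 3 and limma-voom 0. Jun, a subunit of AP-1, measured 2430.5, 1969 and 2839 CPM in shSCR and 3989, 2532 and 2618 CPM in shPostn (log2 fold change 0.34, edgeR adjusted p = 0.377). Its partner Fos measured 519, 439 and 668 CPM in shSCR and 1209, 539 and 802 CPM in shPostn (log2 fold change 0.65, edgeR adjusted p = 0.262), and with the median of its chromosome 12 taken out the log2 fold change was 0.26. Both, too, were highest in shPostn replicate 1, and a link to the chemokine genes was not tested.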
